A study of Rattus norvegicus with 56 samples.

Results

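Heat shock proteins and their J-protein partners are the main families of molecular chaperones, and their transcript levels were measured in the hippocampus and parietal cortex of the same 24 male Long-Evans rats. The family was assembled by name. A gene was a member when a probe on the array carried an accession that RefSeq assigns to a rat symbol beginning with Hspa, Hspb, Hspd, Hspe, Hsph or Hsp90, or with Dnaja, Dnajb or Dnajc and a number, with Dnajc5 left out. This gave 66 genes on 84 probes, of 16581 genes and 45598 probes on the array, and the brightest probe stood for each gene. Of the 66, 62 were tested in both regions. The other 4 (Dnajb7, Dnajb8, Dnajc5g and Hspb7) were above background in fewer than 3 of the 24 animals. No named probe was found for Dnajb1, Hspa1b, Dnajc1, Dnajc6, Dnajc13 or Hspa12b. Hspbp1 and Hspbap1 fall under the naming rule but encode partners of heat shock proteins, not small heat shock proteins.

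The young animals had an age of 6 to 7 months and the aged ones of 26 to 27 months. They received either intermittent theta burst stimulation (iTBS), which delivers short trains of magnetic pulses through a coil above the head, or a sham procedure with the coil held away, and tissue was taken 48 h later. Aged rats had been graded in a water maze as aged-unimpaired (AU, on a par with the young) or aged-impaired (AI), giving 4 young sham (Y_Sham), 4 young iTBS (Y_iTBS), 4 AU_Sham, 5 AU_iTBS, 4 AI_Sham and 3 AI_iTBS animals. The labels place the aged rats in these classes, whereas the study's methods describe the maze for the animals of its slice experiment and give fewer rats for stimulation in life. Isoflurane, dexmedetomidine sedation with its reversal, and a heating pad that kept body temperature near its starting value were used in sham and stimulated rats alike, with a slightly higher dose of sedative per body weight in the young. Values are log2 signals scaled so that 0 is the mean of an array, differences are on the log2 scale with their standard error (SE), and a difference was called when its adjusted p from limma, corrected over all probes tested, was under 0.05.

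Hsp70 proteins bind exposed stretches of unfolded proteins and let go of them in a cycle driven by ATP. J proteins (the Dnaj genes) deliver clients and start ATP hydrolysis, and nucleotide exchange factors such as the Hsp110 proteins Hsph1, Hspa4 and Hspa4l reset the cycle. Hsp90 acts on clients that are nearly folded, small heat shock proteins (the Hspb genes) hold unfolded proteins without ATP, and separate sets serve the endoplasmic reticulum (Hspa5, Hsp90b1 and several J proteins) and the mitochondrion (Hspa9, Hspd1 and Hspe1). Some members are always expressed while others, Hspa1a above all, are induced when heat shock factors bind heat shock elements near the gene, or, for the endoplasmic reticulum set, when the unfolded protein response acts through ER stress elements. Tissue pieces of mixed cells were measured, so fewer cells of a type and less RNA per cell cannot be told apart.

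Promoters with these elements are shown because pairs of the same genes are compared below. RefSeq promoters of the rat assembly GRCr8 were at hand for 53 of the 66 members and 33469 genes in all, and the 250 bases before each start were searched on both strands. A heat shock element was taken as 3 alternating units of GAA and TTC with 2 bases between neighbours. It was found in 4 members, Hspa8, Hspd1, Hspe1 and Hsph1, and in 0.663% of all promoters. The looser match of 2 units, GAANNTTC or TTCNNGAA (which any 3-unit match also holds), was found in 14 of the 53 members and in 13.55% of all promoters. The promoters of Hspa1a, Hsp90ab1 and Hspa4l were among those searched, and these 250 bases held neither form. In the sequences below, written 5′ to 3′ on the strand of the gene, capitals mark the 3-unit element. Hspa8 (constitutive cytosolic Hsp70) is at chr8:50080264-50080513 on the plus strand, Hspd1 (the mitochondrial chaperonin Hsp60) at chr9:64084038-64084287 on the minus strand, Hspe1 (its lid, Hsp10) at chr9:64084077-64084326 on the plus strand and Hsph1 at chr12:10427118-10427367 on the plus strand.
Hspa8: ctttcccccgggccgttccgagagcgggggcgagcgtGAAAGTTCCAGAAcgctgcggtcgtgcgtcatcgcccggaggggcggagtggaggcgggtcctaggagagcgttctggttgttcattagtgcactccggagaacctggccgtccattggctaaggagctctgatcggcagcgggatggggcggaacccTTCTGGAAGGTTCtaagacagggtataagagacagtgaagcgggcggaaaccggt
Hspd1: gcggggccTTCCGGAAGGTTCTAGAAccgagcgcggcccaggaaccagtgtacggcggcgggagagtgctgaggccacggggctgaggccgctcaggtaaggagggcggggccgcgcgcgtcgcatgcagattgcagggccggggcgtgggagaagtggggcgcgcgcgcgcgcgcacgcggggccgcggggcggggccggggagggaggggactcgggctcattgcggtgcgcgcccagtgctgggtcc
Hspe1: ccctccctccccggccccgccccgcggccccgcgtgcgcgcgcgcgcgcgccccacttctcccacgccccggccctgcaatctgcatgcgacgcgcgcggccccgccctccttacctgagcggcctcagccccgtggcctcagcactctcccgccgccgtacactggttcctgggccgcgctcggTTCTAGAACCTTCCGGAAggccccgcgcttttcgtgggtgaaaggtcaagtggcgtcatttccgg
Hsph1: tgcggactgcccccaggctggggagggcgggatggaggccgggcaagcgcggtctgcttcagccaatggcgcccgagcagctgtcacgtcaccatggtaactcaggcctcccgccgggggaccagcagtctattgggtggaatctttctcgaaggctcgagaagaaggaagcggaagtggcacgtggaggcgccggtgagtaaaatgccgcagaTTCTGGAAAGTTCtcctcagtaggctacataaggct

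Hspd1 and Hspe1 lie head to head on opposite strands of chromosome 9. Their upstream stretches overlap, so the run of units in capitals is one and the same stretch read from either side. An ER stress element, CCAAT and CCACG with 9 bases between them, was found in 3 members and in 0.0657% of all promoters (22 of 33469). These were Hspa5 (BiP, the Hsp70 of the endoplasmic reticulum) at chr3:38452766-38453015 on the plus strand, Hsp90b1 (its Hsp90) at chr7:23012294-23012543 on the minus strand and Dnajc3 (a J protein of its lumen) at chr15:102432417-102432666 on the plus strand, with the element in capitals. A match says only that these letters stand in the window.
Hspa5: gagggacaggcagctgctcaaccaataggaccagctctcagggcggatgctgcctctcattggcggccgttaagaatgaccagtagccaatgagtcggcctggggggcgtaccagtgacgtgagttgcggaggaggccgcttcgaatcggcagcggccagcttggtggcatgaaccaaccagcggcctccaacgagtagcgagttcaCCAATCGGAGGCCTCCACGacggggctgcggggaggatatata
Hsp90b1: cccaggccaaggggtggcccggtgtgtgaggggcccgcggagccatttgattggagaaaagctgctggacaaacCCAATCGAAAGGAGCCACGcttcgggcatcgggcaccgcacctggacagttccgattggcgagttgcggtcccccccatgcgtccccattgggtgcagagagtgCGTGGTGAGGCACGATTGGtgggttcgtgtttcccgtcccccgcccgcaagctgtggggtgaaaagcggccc
Dnajc3: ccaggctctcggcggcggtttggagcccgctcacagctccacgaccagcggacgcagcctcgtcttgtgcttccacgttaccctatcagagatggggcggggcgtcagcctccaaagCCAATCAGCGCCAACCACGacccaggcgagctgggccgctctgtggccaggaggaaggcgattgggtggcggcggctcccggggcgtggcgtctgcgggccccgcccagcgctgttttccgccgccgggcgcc

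The hippocampus and cortex were first compared within each animal, separately in the 12 sham and the 12 iTBS rats, so that 1 set of animals repeats the other, although both share the fit's estimate of spread. In sham rats 16 of the 62 members were called, 13 higher and 3 lower in the hippocampus, where 36.0% of all 33720 probes were called, 19.2% higher and 16.7% lower. In iTBS rats 14 members were called, 11 higher and 3 lower, against 32.6% of all probes, 17.1% higher and 15.4% lower. Members were thus called at 25.8% and 22.6%, below the share of all probes. The median difference of the members was 0.03 in sham and 0.05 in iTBS rats, and that of all probes 0.03 and 0.01. Of the called members, 10 were called in both sets of animals, all with the same sign, which is 62.5% of the sham calls and 71.4% of the iTBS calls.

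**Figure D1:**
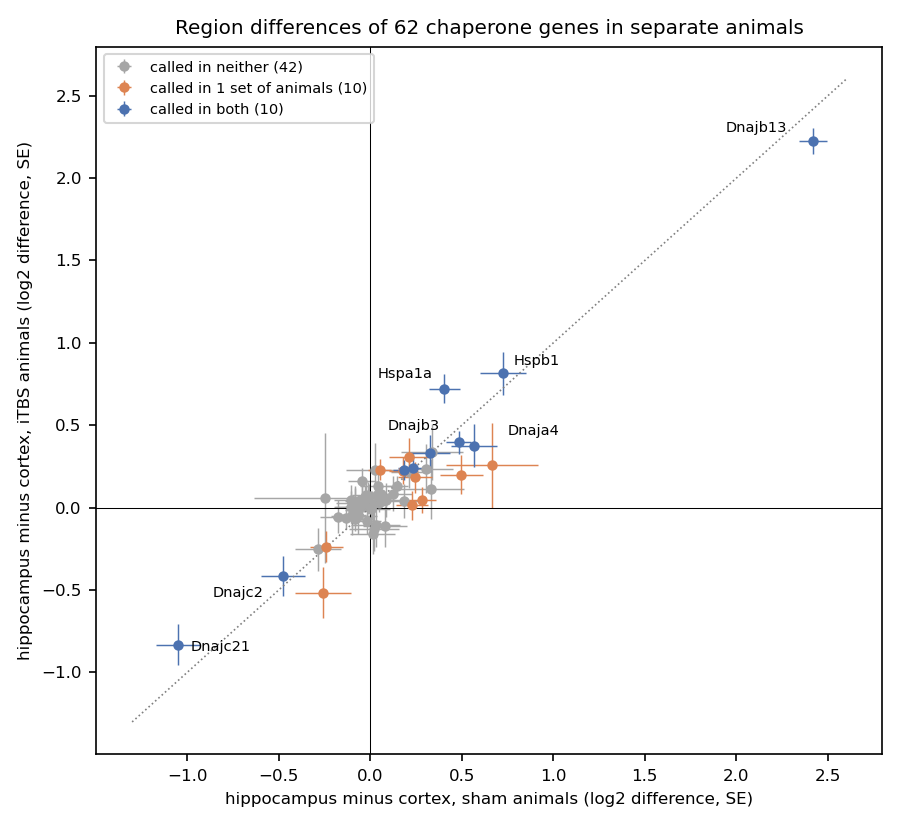
Difference between hippocampus and cortex of each of the 62 chaperone genes, in the 12 sham rats (x axis) and the 12 iTBS rats (y axis), log2 with SE bars; the dotted line marks equal values. Dnajb13 stands alone at upper right (2.42 and 2.23), Dnajc21 at lower left, and the 42 genes called in neither set gather near 0.

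Dnajb13, a J protein of the axoneme of motile cilia and sperm tails, differed most. In sham rats its level ran from 3.55 to 4.20 in the hippocampus and from 1.02 to 1.87 in the cortex, and in iTBS rats from 3.23 to 3.81 and from 1.16 to 1.49. The regions did not overlap, and the hippocampus was higher in 24 of 24 animals. The difference was 2.42 (SE 0.076, adjusted p = 1.48e-15, 5.34-fold) in sham and 2.23 (SE 0.078, adjusted p = 7.26e-15, 4.68-fold) in iTBS rats. A second, dimmer probe of the gene gave 2.42 and 2.19. Among 7 tested markers of ciliated ependymal cells, 5 were also higher in the hippocampus in both sets of animals (Foxj1, the master factor of motile cilia, by 1.47 and 1.61) and 1, Spag6, was lower (by -1.59 and -0.97). The mean of the 7 ranged over animals from 1.24 to 2.84 in the hippocampus and from -0.39 to 2.11 in the cortex. Of 9 tested choroid plexus markers, 7 in sham and 5 in iTBS rats were higher in the hippocampus, Ttr by 1.90 and 1.76. What part the ependymal lining and choroid plexus have in the Dnajb13 difference was not tested.

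Dnajc21, a J protein of ribosome assembly, went the other way. Its level ran from 2.55 to 3.69 in the hippocampus of sham rats and from 3.86 to 4.44 in their cortex, and in iTBS rats from 3.13 to 3.88 and from 3.75 to 4.72. It was lower in the hippocampus in 24 of 24 animals, although the ranges of the regions overlapped in iTBS rats. The difference was -1.05 (SE 0.12, adjusted p = 5.51e-07) in sham and -0.83 (SE 0.12, adjusted p = 1.99e-05) in iTBS rats, 2.07-fold and 1.78-fold lower. Dnajc2, which acts on nascent chains at the ribosome, was also lower in both, by -0.47 and -0.42 (SE 0.12 each).

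Of 11 heat-inducible members tested, 5 lay above 0 and 6 below in sham rats, with 3 called higher in the hippocampus. In iTBS rats 8 lay above and 3 below, with 2 called higher. The heat-inducible members called higher in both sets were Hspb1 (Hsp27, also a small heat shock protein) and Hspa1a (the classic heat-induced Hsp70). Hspb1 was 4.79 ± 0.44 in the hippocampus and 4.06 ± 0.54 in the cortex of sham rats (mean ± SD, n = 12), and 4.60 ± 0.53 and 3.79 ± 0.59 in iTBS rats. The regions overlapped over animals, while within animals the hippocampus was higher in 11 of 12 sham and 12 of 12 iTBS rats. The differences were 0.72 (SE 0.13, adjusted p = 0.000117) and 0.81 (SE 0.13, adjusted p = 4.69e-05). For Hspa1a they were 0.40 (SE 0.085, adjusted p = 0.000751) and 0.72 (SE 0.087, adjusted p = 1.24e-06), with the hippocampus higher in 10 of 12 and 12 of 12 rats. Its dimmer probe gave 1.00 and 0.89. Hspa1b is a near-identical copy of Hspa1a in the genome, and whether either probe tells them apart was not tested.

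The remaining members called in both sets differed by less. Hspb8, a small heat shock protein that works with Bag3 in clearing proteins, was higher in the hippocampus by 0.33 in each. Dnaja4, a cytosolic J protein, was higher by 0.57 and 0.38, and Dnajb3, known from testis, by 0.48 and 0.40. Dnajc12, a partner of the aromatic amino acid hydroxylases, was higher by 0.19 and 0.23, and Dnajc18 by 0.23 and 0.24. Hspa2, an Hsp70 abundant in testis and brain, was called in sham rats (0.28, adjusted p = 0.00561) and not in iTBS rats (0.05, adjusted p = 0.685). Others called in sham rats were Dnajb5 (0.50), Dnajc17 (0.24), Hsph1 (0.23), Hspa12a (-0.24) and Hspa1l (0.66), of which Hspa1l was above background in 7 and 4 of the 24 animals. Called in iTBS rats were Dnajc7 (0.31), Dnajc3 (0.23), Dnajc15 (0.22) and Hspb3 (-0.52). The 95% interval of the difference lay within 0.5 either side of 0 for 46 of the 62 members in each set.

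By role, 0 of 3 Hsp90 genes and, of 10 chaperones of the endoplasmic reticulum, 0 in sham and 1 in iTBS rats were called between regions. Of the mitochondrial set of 8, 0 and 1 were called. Of 4 cytosolic Hsp70 genes 3 and 1 were called, of 3 Hsp110 genes 1 and 0, and of 6 small heat shock proteins 2 and 3. For the brightest probes of the 3 Hsp90 genes the unadjusted p was at least 0.288 in both sets. A second Hsp90aa1 probe gave -0.23 (SE 0.12, unadjusted p = 0.0595) in sham rats where the brightest gave -0.05, and a second Hsp90ab1 probe gave 0.10 where the brightest gave -0.10. Around the family, 24 co-chaperones and heat shock factors gave 5 higher and 1 lower in sham and 6 higher and 1 lower in iTBS rats, and 17 genes of the unfolded protein response gave 6 higher and 2 lower in both. In the same comparison, 7 of 8 oligodendrocyte markers were higher in the hippocampus in both sets, with 1 lower in iTBS rats. Of 8 astrocyte markers 4 were higher in both sets, and of 8 microglia markers 3 and 2. Of 12 endothelial and mural markers 6 and 2 were lower, and of 6 inhibitory neuron markers 4 and 3. Of 6 excitatory neuron markers, 4 were higher and 1 lower in sham and 2 higher and 2 lower in iTBS rats. Of 11 immediate early genes, 10 and 9 were lower. What part these have in the members' differences was not tested.

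Regions were largely hybridized on different slides, so slide and region cannot be told apart for most animals. The repeat arrays of 1 young sham animal put both regions on 1 slide, once on each of 2 slides. These repeats are averaged into the value of that animal, so they are not independent of the sham calls. All 16 sham calls kept their sign on both slides, as did 13 of the 14 iTBS calls on each. The exception was Dnajc15, with -0.23 and -0.20 on these slides against 0.22 in iTBS rats. On these slides the Dnajb13 difference was 2.39 and 2.20, and the Dnajc21 difference -0.84 on both. In the 15 animals whose regions were both scanned in batch 1, the largest, 11 members were called in sham and 13 in iTBS rats. The share of all probes called in these 15 animals is not given here, so the counts do not set members against other genes.

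iTBS was compared with sham in each group and region, the study's main question. No member was called in any of these comparisons (0 of 62 in each, limma), where all-probe calls were 0% except for AI cortex, in which 2 probes (0.00613%) were called. In the hippocampus, 5 members had an unadjusted p under 0.05 in young rats (4.54% of all probes), 0 in AU rats (2.29%), 0 in AI rats (1.88%) and 1 in all aged rats together (2.46%). In the cortex the counts were 0 in young (2.71%), 5 in AU (8.39%), 3 in AI (4.08%) and 2 in all aged rats (2.92%). The median difference of the members lay between -0.08 and 0.04 over these 8 comparisons, and that of all probes between -0.02 and 0.04. In all aged rats together the 95% interval of the iTBS effect lay within 0.5 either side of 0 for 57 members in the hippocampus and 50 in the cortex, and within 1 for 61 in each, all but Dnajc5b.

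**Figure D2:**
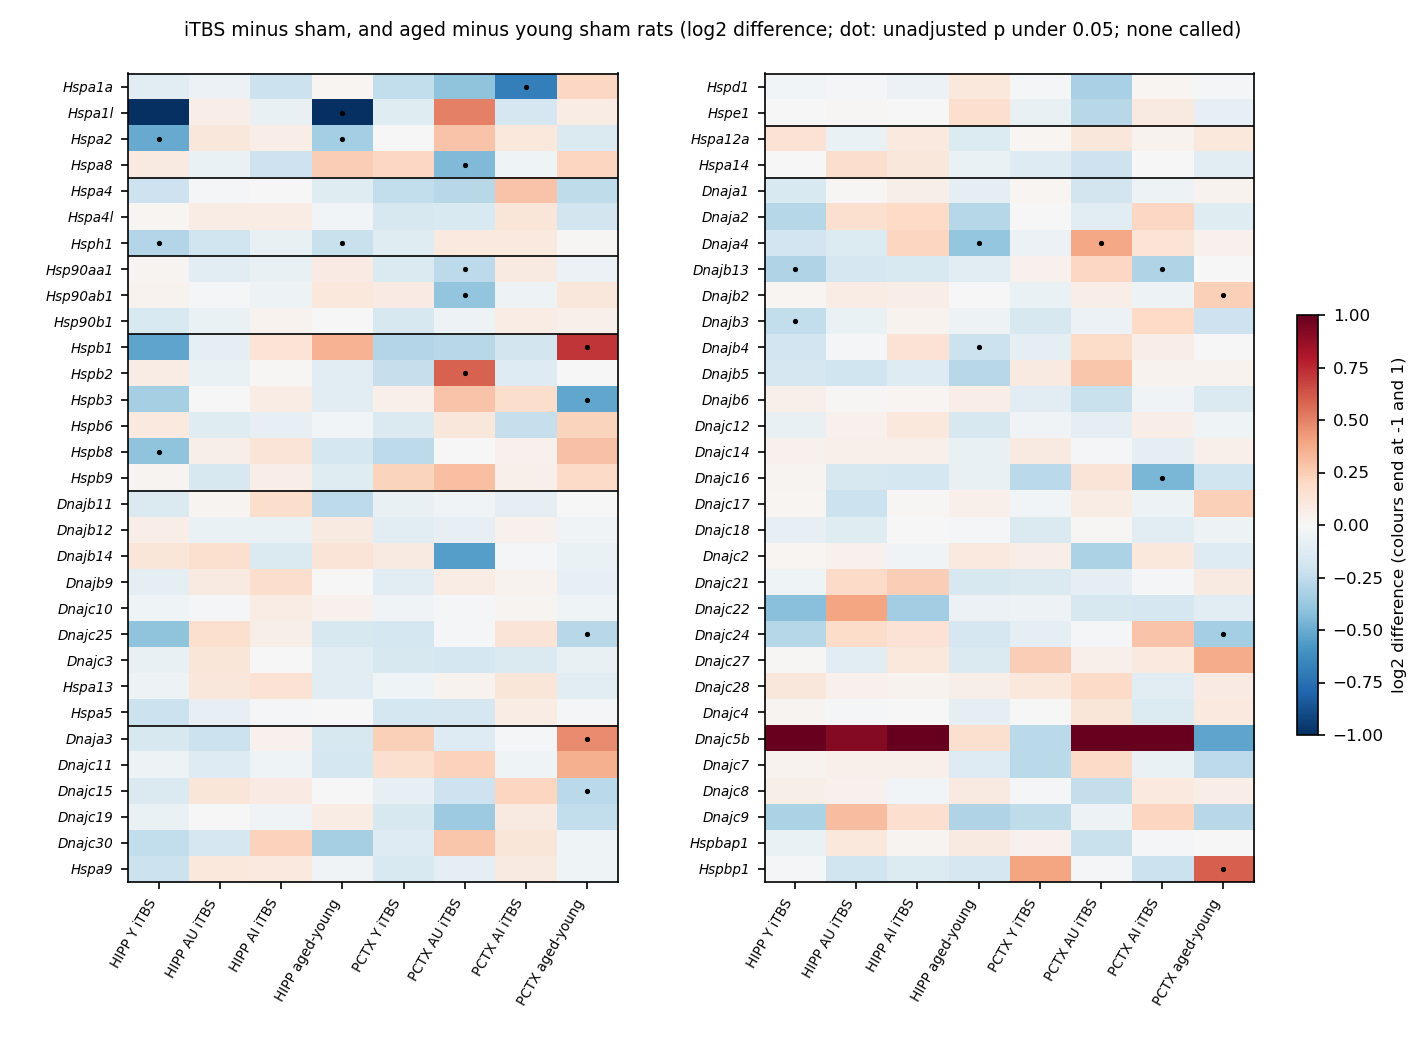
Log2 difference of each of the 62 genes (rows, grouped by role with lines between groups) for iTBS minus sham in young, AU and AI rats and for aged minus young sham rats, in hippocampus and cortex (columns). Colors end at -1 and 1, dots mark an unadjusted p under 0.05, and no cell is called after adjustment; Dnajc5b and Hspa1l, the strongest in color, were above background in 9 animals or fewer in a region.

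In young rats the smallest p in the hippocampus was that of Hspa2. Its levels were 2.89, 2.86, 2.90 and 2.33 in Y_Sham and 2.38, 2.11, 2.19 and 2.28 in Y_iTBS animals. All sham animals but 1 lay above every stimulated one. The difference was -0.50 (SE 0.14, unadjusted p = 0.00195, adjusted p = 0.930 by limma). Hspb8 (-0.40), Hsph1 (-0.29), Dnajb3 (-0.25) and Dnajb13 (-0.30) followed, with the same adjusted p. In this comparison 9 of 9 choroid plexus markers (median -1.16) and 6 of 7 ciliated ependymal markers (median -0.61) were also negative, 1 of each with an unadjusted p under 0.05 and 0 called. The mean of the ependymal markers was 1.65 to 2.45 in Y_Sham and 1.24 to 1.77 in Y_iTBS animals. For the choroid plexus the mean, over all 10 markers on the array whether tested or not, was -0.26 to 1.16 and -1.44 to -0.16. Their part in the values of Dnajb13 and the others was not tested. In the cortex of the same rats Hspa2 was 2.25, 2.39, 2.25 and 2.41 against 2.17, 2.46, 2.45 and 2.22, which overlap throughout. The iTBS effect on Hspa2 differed between the regions by -0.50 (SE 0.19, adjusted p = 1.00), and between aged and young hippocampus by 0.60 (SE 0.17, adjusted p = 0.799). Neither was called.

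Hspa1a had the smallest p for iTBS in aged cortex, -0.55 (SE 0.18, unadjusted p = 0.00739, adjusted p = 1.00). In AU rats it was 2.19, 2.47, 2.68 and 2.90 after sham and 2.43, 1.82, 2.03, 2.01 and 2.50 after iTBS. In AI rats it was 4.10, 2.37, 2.84 and 3.06 after sham and 2.34, 2.42 and 2.46 after iTBS. The groups overlapped in both, and 1 animal, AI_Sham 1, stood far above the rest. Without it the difference in aged cortex was -0.38, and that in AI cortex, -0.69 in full, was -0.35 (unadjusted p = 0.114). In young cortex the difference was -0.25 (SE 0.26), and in the hippocampus -0.11 in young, -0.06 in AU and -0.22 in AI rats. On the brightest probe all of the 6 thus had the same sign, with none called. The dimmer probe gave -0.31 (SE 0.21) in aged cortex, but its values did not fall in AU rats. There they were -1.88, -1.46, -1.54 and -1.53 after sham and -1.87, -0.99, -0.88, -1.94 and -1.13 after iTBS. In AI cortex they were -0.22 (AI_Sham 1), -1.58, -1.38 and -1.41 after sham and -1.88, -2.09 and -2.05 after iTBS.

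The study selected probes by a lighter rule, an unadjusted analysis of variance and z-test with a false discovery rate under 0.30 and a minimum z-ratio. It also asks for an average z-score above 0, taken here over all animals of a region rather than over the compared pair. Applied to the animals here, it passed 0.134%, 0.0307%, 0.0504% and 0.0307% of probes in the hippocampus of young, AU, AI and all aged rats, with 0 members. In the cortex it passed 0.0877%, 0.0504%, 0.0899% and 0.0461%, with 1 member, Hspa1a in all aged rats, among 21 probes.

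**Figure D3:**
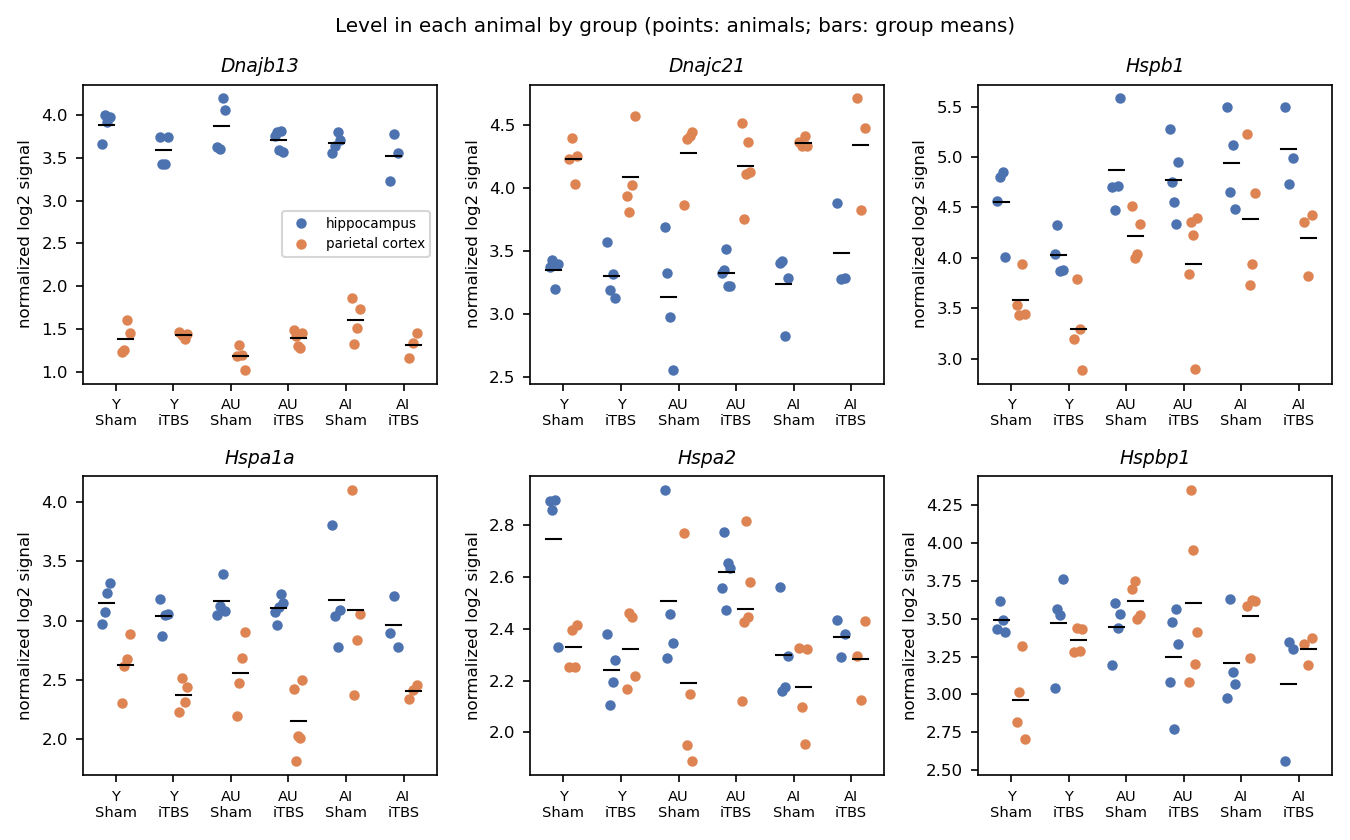
Normalized log2 signal of 6 genes in each animal (points) with group means (bars), by group and region, hippocampus in blue and cortex in orange. The regions of Dnajb13 stand apart in every group and those of Dnajc21 in all but AI_iTBS, whereas the groups overlap for Hspa1a, where AI_Sham 1 is the highest animal in both regions (3.81 and 4.10).

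In the cortex of AU rats, 5 members had an unadjusted p under 0.05, 3 with negative and 2 with positive values. Hsp90ab1, a constitutive Hsp90, was 9.27, 9.20, 9.15 and 9.36 after sham and 8.96, 8.71, 8.72, 9.24 and 8.62 after iTBS, with 1 of the stimulated animals among the sham values, and differed by -0.39 (SE 0.15). Hspa8 differed by -0.45 (SE 0.19) and Hsp90aa1 by -0.27 (SE 0.13), while Hspb2, a small heat shock protein of muscle, differed by 0.59 (SE 0.26) and Dnaja4 by 0.38 (SE 0.18). All 5 had an adjusted p of 0.579. Of 3 Hsp90 genes 3 had a negative sign, of 4 cytosolic Hsp70 genes 2, of 3 Hsp110 genes 2 and of 6 small heat shock proteins 2, and 0 were called. In the same comparison 6 of 8 astrocyte markers were negative (median -0.31, 2 with an unadjusted p under 0.05), as were 11 of 12 endothelial and mural markers (median -0.23), against a median of 0.04 for all probes. The mean of the astrocyte markers was 6.30 to 6.72 in AU_Sham and 6.12 to 6.38 in AU_iTBS animals, and that of the endothelial and mural ones 3.93 to 4.09 and 2.74 to 4.11. Their part in these values was not tested. After quantile normalization the values were -0.14 for Hsp90ab1, -0.11 for Hspa8 and 0.02 for Hsp90aa1, and with the slide as a block Hspb2 came to 0.09 and Dnaja4 to 0.10. In AI cortex Dnajc16, a J protein of the endoplasmic reticulum membrane, differed by -0.46 (SE 0.15, adjusted p = 1.00), and by -0.25 without AI_iTBS 1.

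The iTBS effect was next set against age and region. Between aged and young rats 2 of 62 members in the hippocampus (4.31% of all probes) and 0 in the cortex (3.22%) had an unadjusted p under 0.05, and 0 were called. Between regions 1 member in young (2.66%) and 1 in aged rats (2.28%) did, Hspa2 and Hspa1a, and 0 were called. A test over all 6 groups called 0 members in either region, against 0.0524% of probes in the hippocampus and 0.153% in the cortex. In it 3 members had an unadjusted p under 0.05 in the hippocampus (5.52%) and 6 in the cortex (9.16%), led by Dnajc15 (adjusted p = 0.328), a J protein of the mitochondrial inner membrane.

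Age was compared in sham rats, 8 aged against 4 young. No member was called in the hippocampus, where 1 probe was (0.00308%), or in the cortex, where 0.104% were. An unadjusted p under 0.05 was found for 5 members in the hippocampus (8.22%) and 8 in the cortex (9.47%). Hspbp1, a nucleotide exchange factor of Hsp70, had the smallest p in the cortex. Its levels there were 2.82, 3.02, 3.32 and 2.71 in young rats, 3.69, 3.75, 3.50 and 3.53 in AU rats and 3.58, 3.24, 3.62 and 3.61 in AI rats. A single aged value, the 3.24, lay within the young range. The difference was 0.60 (SE 0.18, unadjusted p = 0.00328, adjusted p = 0.316), and with the slide as a block it was 0.71 (adjusted p = 0.0389), which is called. In the hippocampus it was -0.17 (SE 0.17), and the region difference of the age effect, -0.76 (SE 0.26, adjusted p = 0.731), was not called. Stimulated rats, which that comparison did not use, had cortical levels of 3.28 to 3.44 in Y_iTBS, 3.08 to 4.35 in AU_iTBS and 3.20 to 3.37 in AI_iTBS animals.

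Other members with small p for age in the cortex were Dnaja3 (0.48, SE 0.18), a J protein of mitochondria, Hspb1 (0.72, SE 0.28), Dnajc24 (-0.34) and Dnajc15 (-0.27, SE 0.094), with adjusted p from 0.396 to 0.448. Hspb1 was 3.43 to 3.94 in the cortex of Y_Sham, 4.00 to 4.51 in AU_Sham and 3.73 to 5.23 in AI_Sham rats, and 2.89 to 3.79 in Y_iTBS rats. The aged groups lay higher with some overlap. In the hippocampus Hspa1l (-1.39, SE 0.46), Hspa2 (-0.34, SE 0.12), Dnaja4 (-0.38, SE 0.15), Dnajb4 (-0.21) and Hsph1 (-0.22) had adjusted p from 0.576 to 0.603. Without Y_Sham 2, Hspa1l came to -0.77. The region difference of the age effect had 3 members with an unadjusted p under 0.05 (6.46%), Hspbp1, Dnaja3 and Hspa1l, and 0 called (0.00297% of probes). The median difference of the members with age was -0.07 in the hippocampus and -0.02 in the cortex, against -0.02 and -0.01 for all probes.

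Cognitive status was compared between AI and AU sham rats, 4 each. No member was called in either region, and none of the probes. An unadjusted p under 0.05 was found for 1 member in the hippocampus (4.03%), Dnajb4, and 4 in the cortex (6.44%). These were Dnajb13 (0.43, SE 0.12, adjusted p = 0.585), Hsp90aa1 (-0.34), Hspa4 (-0.41) and Hsp90ab1 (-0.38). Dnajb13 in the cortex was 1.19, 1.31, 1.20 and 1.02 in AU_Sham and 1.87, 1.33, 1.51 and 1.73 in AI_Sham rats, and the groups did not overlap. The mean of the 7 ciliated ependymal markers in the same cortex was 0.14 to 1.47 in AU_Sham and 0.84 to 1.85 in AI_Sham rats, and its part in this was not tested.

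Whether an animal with a high level in one region also had it in the other was tested for 6 members across the 24 animals. Values were deviations from the group means, with permutation tests and adjustment over the 6. The permutations shuffled these deviations over all animals without regard to group and did not count the fitted group means. Their p-values are thus likely too small, most so in the 15 animals of 1 batch, where groups are smaller. For Hspa5 Pearson's r was 0.49 (p = 0.0152, adjusted p = 0.0615, permutation) and Spearman's rho 0.49 (adjusted p = 0.0962). Without the 2 animals farthest out in the hippocampus r was 0.69. In the 15 animals scanned in 1 batch, with group means taken over those animals, it was 0.75 (adjusted p = 0.00666, permutation), and after quantile normalization 0.72. For Hspb1 r was 0.47 (adjusted p = 0.0615, permutation) and rho 0.41 (adjusted p = 0.137), with 0.39 without the outermost 2 animals and 0.51 within the batch. Dnajb9, a J protein of the unfolded protein response, had an r of 0.38, Hsph1 of -0.18, Hspa8 of -0.13 and Hsp90aa1 of -0.11, with adjusted p of 0.142 or more. Over all members the median r between regions was -0.01 and over all probes 0.04. The 9 other animals do not lie in 1 batch, which gave too few for a value.

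Hspa1a was added to this test after its values had been seen. Its r was 0.66 (adjusted over 7 relations p = 0.0137, permutation) and rho 0.43 (adjusted p = 0.107). Without AI_Sham 1 and AI_Sham 3, r was 0.34, and within the scan batch of 15 animals it was -0.15. After quantile normalization r was 0.75 and after 75th percentile scaling 0.77, and without the outermost 2 animals 0.56 and 0.59. On the scale used throughout, r thus fell most without those 2 animals, and the values without 2 animals were not tested on any scale. Within the batch the relation was not found, but AI_Sham 1 is not among those 15 animals. The batch value was taken only on the scale used throughout, so it is not a separate check.

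**Figure D4:**
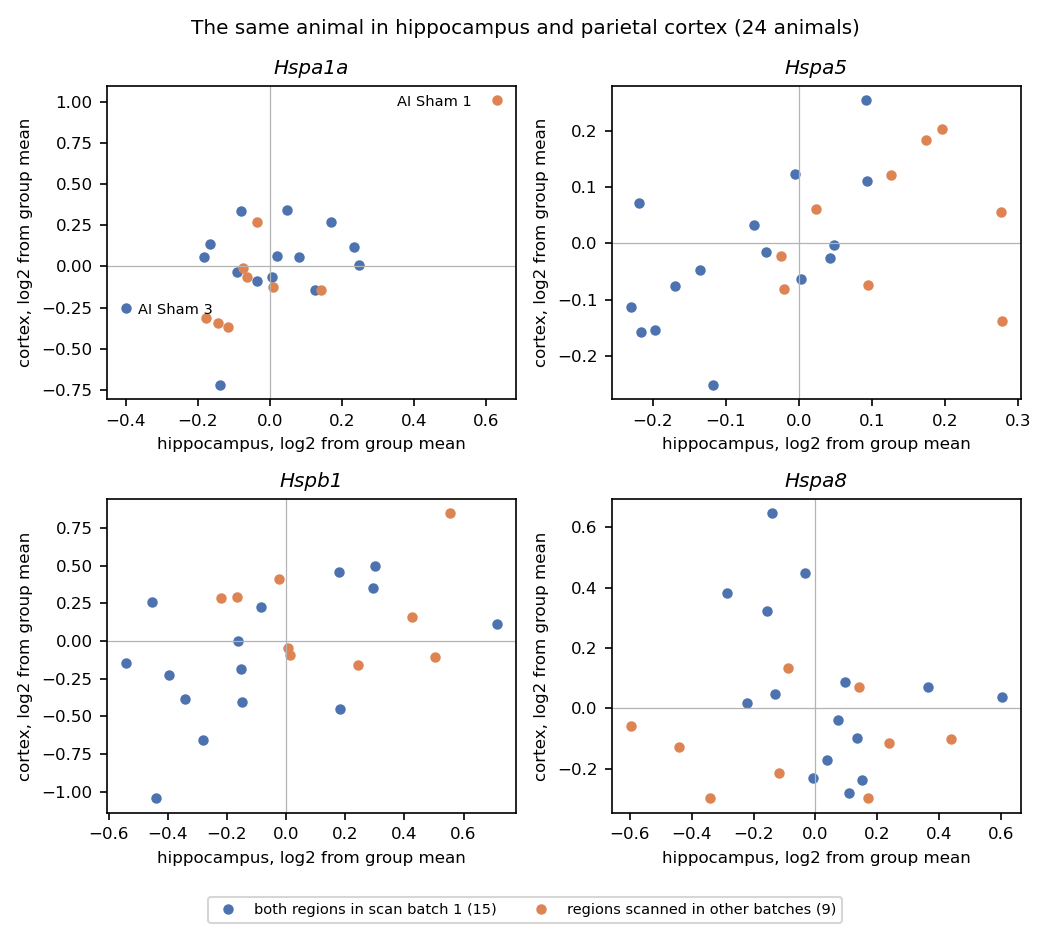
Deviation of each of 24 animals from its group mean in hippocampus (x axis) and cortex (y axis), log2, for 4 genes; blue animals had both regions scanned in batch 1, orange ones did not. For Hspa1a, AI_Sham 1 and AI_Sham 3 lie farthest out, and without them r is 0.34 on this scale, whereas for Hspa5 the blue animals rise together (r = 0.75 once group means are taken over those animals alone).

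Genes with a shared promoter element were compared in the same way within each region, after the data had been seen. This gave 18 relations over 24 samples each, adjusted over the 18, and these p-values too are likely too small. Hspd1 and Hspe1, whose promoters overlap, went together, with r of 0.83 and rho of 0.81 in the hippocampus and r of 0.91 and rho of 0.92 in the cortex (adjusted p = 9.00e-05 for r and 0.00018 for rho in each, permutation). The unadjusted p for r was the smallest that these permutations can give. Their values were 0.74 and 0.89 without the 2 outermost animals, 0.80 and 0.89 in the 15 animals of 1 scan batch, and 0.75 and 0.77 after quantile normalization. Hsph1, which holds the same element, had an r of -0.49 and -0.59 with Hspd1 in hippocampus and cortex (adjusted p = 0.0249 and 0.00532, permutation), and -0.31 and -0.67 with Hspe1 (adjusted p = 0.174 and 0.00184, permutation). Values without the 2 outermost animals were -0.44 and -0.46 for Hspd1 and -0.20 and -0.51 for Hspe1. All 4 kept the negative sign within the scan batch and after both other scalings. Hspa8 with Hspd1 gave 0.48 and 0.55, which became 0.05 and -0.10 after quantile normalization. Hspa8 with Hspe1 gave 0.48 and 0.61 (adjusted p = 0.0286 and 0.00447, permutation), which became 0.41 and 0.02. Hspa8 with Hsph1 gave 0.03 and -0.54, the latter with adjusted p = 0.0125 by permutation, which became 0.31 and -0.15.

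**Figure D5:**
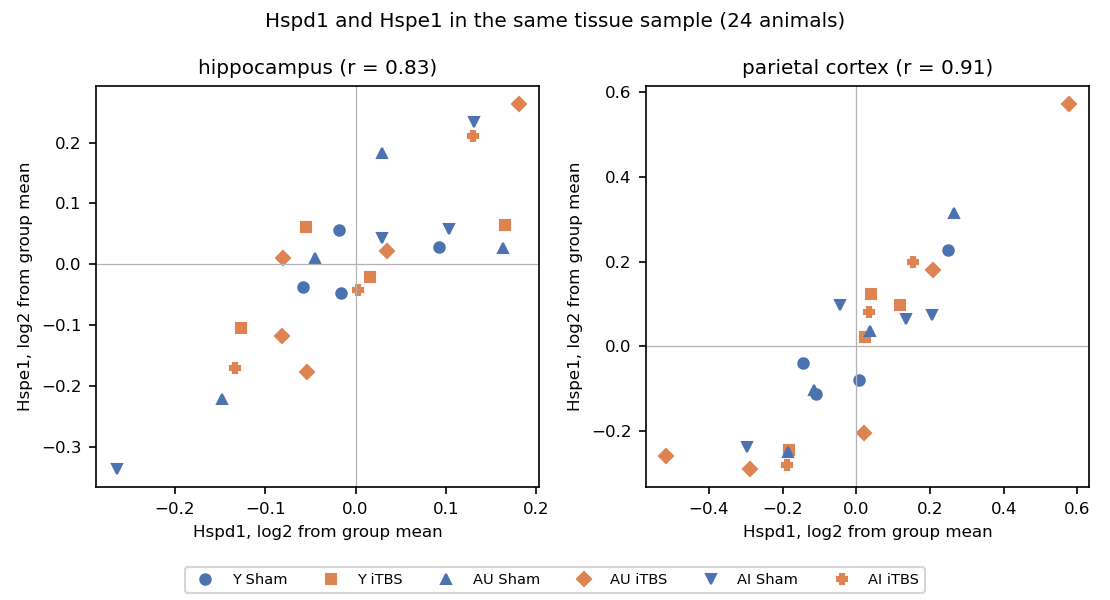
Hspd1 (x axis) against Hspe1 (y axis) in each of 24 animals, as log2 deviation from the group mean, in hippocampus (left, r = 0.83) and cortex (right, r = 0.91); symbols show the group, blue for sham and orange for iTBS. Animals of every group lie along 1 rising line in each region.

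The 3 genes with an ER stress element did not go together in both regions. Dnajc3 and Hspa5 had an r of 0.71 in the hippocampus (adjusted p = 0.0006, permutation) and 0.31 in the cortex (adjusted p = 0.174, permutation). Dnajc3 and Hsp90b1 had 0.21 and 0.64, the latter with adjusted p = 0.00252 by permutation, and Hsp90b1 and Hspa5 had 0.42 and 0.21, neither passing 0.05. Within the scan batch, Dnajc3 and Hspa5 came to 0.47 and -0.08. Both genes of a pair are read from the same array of each animal, by the brightest probe of each gene only. Values for pairs without a shared element are not given here. Whether any of these r values is particular to genes with a shared element was not tested.

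The SD within groups had a median of 0.20 over members and 0.26 over all probes in the hippocampus, and 0.25 and 0.35 in the cortex. Technical repeats of an animal and region differed from the first array by a median of 0.041 to 0.100 over the members. The exception was 1 cortex repeat of AI_iTBS 2, which differed by 0.206. Over 500 probes that repeat did not resemble the first array of its animal (r = -0.00) and resembled AI_Sham 2 most (r = 0.53). It was left out of the averages. Had the first cortex arrays of AI_iTBS 2 and AI_Sham 2 been exchanged instead, the same values would arise, and which array is mislabelled was not tested. The AI cortex and same-animal values carry this limit. Several members had further tested probes, and some differed from the brightest, as in the following examples. For Hspd1 the other probes gave -0.28 and -0.45 for age in the hippocampus where the brightest gave 0.10, and 0.25 (adjusted p = 0.0463) and 0.17 for the region difference in iTBS rats where the brightest gave 0.06. A Dnajc27 probe gave -0.25 for the region difference in iTBS rats (unadjusted p = 0.0191 by limma) where the brightest gave -0.10. For Dnajb6 1 probe gave -0.64 for iTBS in young hippocampus where the others gave 0.05 and 0.08. The second Hspa1a probe gave -0.50 there where the brightest gave -0.11. For Hspa8 the dimmest of 4 probes gave 0.15 and 0.12 for the region difference in sham and iTBS rats, where the brightest gave -0.28 and -0.25.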

How the data were processed

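RNA of hippocampus and parietal cortex was labelled with Cy3 and hybridized, 1 colour, to rat Agilent arrays of 62976 features, read with Feature Extraction 12.0.3.1. The deposited scanner files hold each spot's intensity after background correction by the authors, which was used as log2. The authors deposited a table of score values, which they made by turning each array's log2 signals into z-scores. It was used as an alternative and matched recomputed z-scores within 0.005. Of 56 arrays, 48 were first arrays of the 24 animals in 2 regions and 7 were technical repeats, averaged into their animal except for 1 cortex repeat. The remaining array, whose labels give conflicting groups, was not used. 

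Spots flagged as outliers (267 to 1448 per array) and control spots were dropped, spots of 1 probe averaged, and log2 values converted to z-scores and multiplied by the mean array SD of 4.08. Probes were 59.3% to 69.7% above background per array, and the number of arrays limits the precision. Probes well above background in at least 3 of 24 animals were kept (32417 in hippocampus, 32603 in cortex). limma 3.58.1 in R 4.3.3 fitted 6 group means per region with 18 residual degrees of freedom, with Benjamini-Hochberg adjustment over all probes. Regions were compared as differences within animals. Correlations used 100000 permutations (scipy 1.17.1), and the scripts were tested on simulated data. Names came from accessions in the scanner files matched to RefSeq (46.3% of probes). The alternatives were other scalings and filters, blocks for slide, scan batch or replicate number, left-out animals and the mean of all probes of a gene.

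The members, gene lists and tests were chosen with earlier results of these data known. Named genes were the chaperone lists, the called members or else the 5 of smallest p in each comparison, and the members of largest spread. Replicates are separate animals. Of same-numbered sham and iTBS animals, 3 of 11 pairs in the hippocampus and 6 of 11 in the cortex deviated together (correlation over 0.1), among them all 3 pairs of AI cortex (0.14 to 0.39), so the numbers were not used as pairs in general. In AI cortex the fit with the number as a block called 0 members, as without it. Replicate 1 of every group lay on 1 slide in each region (slide 7 in hippocampus, slide 5 in cortex), so number and slide are tied in part.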

Additional observations from a re-analysis of the deposited data

Results flagged for a closer look

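In 19 of 410 groups examined over 41 members, 1 animal stood far from the rest of its group by Dixon's test. That is 4.63%, where chance gives about 5%.

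In the hippocampus, Y_Sham 4 was the lowest of its group for both Hspa2 (2.33, others' mean 2.88) and Hspb8 (2.15, others' mean 2.61), the members with the smallest p for iTBS in young rats. Y_iTBS 1 was lowest for Hsp90aa1 (9.55), Y_iTBS 4 for Hspa14 (5.34) and AI_Sham 2 for Dnajc3 (3.17), and AI_Sham 1 was highest for Dnajc5b (-2.31).

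In the cortex, AI_Sham 1 was lowest for Dnajb5 (2.64) and Hspe1 (7.47) and highest for Dnajc25 (2.21). AU_Sham 1 was lowest for Dnajc21 (3.86, others' mean 4.41) and Hspa13 (5.29, others' mean 5.93). AU_Sham 4 was lowest for Dnajc17 (2.71) and highest for Dnajc15 (5.40) and Dnajc5b (-2.22). Y_iTBS 1 was highest for Dnajc9 (5.48) and Dnajc5b (-1.93), AU_iTBS 2 lowest for Dnajc12 (2.92), AU_iTBS 4 highest for Hsp90aa1 (10.2) and AI_Sham 2 lowest for Hspbp1 (3.24).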

How the results depend on the processing

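Leaving out 1 animal at a time gave 11 to 17 members called between regions in sham rats and 9 to 14 in iTBS rats, with the 9 without AI_iTBS replicate 2, and 0 in every other comparison. Other alternatives gave 11 to 18 and 13 to 20 members between regions. Shares of all probes called under these settings are not given here, so the counts do not set members against other genes. Dnajb13, Dnajc21, Hspb1, Hspa1a, Dnajb3, Dnaja4 and Dnajc2 were called in 12 of 12 alternatives in both sets, whereas Hspa1l was called in 6 of 11, Dnajc17 and Hsph1 in 6 of 12 and Hspa12a in 5 of 12 for sham, and Dnajc7 in 5 of 12 for iTBS. With the slide as a block 1 member, Hspbp1, was called for age in sham cortex. The study's selection rule, as applied here, passed 1 member, Hspa1a, for iTBS in aged cortex. Of the 6 members planned for correlation between regions, 0 passed as reported, 2 without centring on group means, 1 in the largest scan batch and 1 after quantile normalization. Hspa1a, added later, passed in each of these but the scan batch. The cause was not tested. Same-numbered animals deviated together in every pair of AI cortex. Some pairs elsewhere did so too, such as AI hippocampus 1 (r = 0.40) and AU cortex 4 (r = 0.33). With the replicate number as a block 0 members were called in each comparison within a region. Without pairing the regions by animal, 16 and 14 were called between them.

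Values that changed sign were Hspa1a for iTBS in AI hippocampus (0.0264), Dnaja4 for iTBS in aged cortex (-0.0037) and the region difference of the iTBS effect in aged rats for Hsph1 (0.0485) and Dnajb5 (0.142), all in the largest scan batch only. Others were Hspa8 (0.0123, normexp) and Hsp90aa1 (0.0192, quantile) for iTBS in AU cortex. Correlations between regions turned for Hsph1 (0.0866), Dnajb9 (-0.19) and Hspa1a (-0.153) in the largest scan batch, for Hspa8 after quantile normalization (0.253) and 75th percentile scaling (0.0498), and for Hsp90aa1 without centring (0.0044) and after quantile normalization (0.372). The cause was not tested. With groups of 3 to 5 animals and most changes under 0.5 on the log2 scale, a change of that size could be missed.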
